A study of Mus musculus with 36 samples.

Results

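The genes described here are immediate early and stress response genes. Cells switch on immediate early genes within minutes to hours of a stimulus and without new protein synthesis, which need not hold for stress response genes. The genes described here were chosen by name. Of 10 genes looked for, Atf3, Gadd45g, Ier3, Rgs2, Fos, Jun, Egr1 and Klf4 had at least 1 spot with a single gene symbol, which made 8 genes and 10 spots among 6971 genes and 15388 spots in all. Rgs2 and Klf4 had 2 spots each, and Junb and Dusp1 had no such spot and are not analysed here. The rule uses names alone, but the set was proposed with earlier results of these arrays known.

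In BALB/c mice, whole lungs were taken after 1, 3, 7, 14 or 21 days at 0.5 atm, or after those 21 days plus 1, 3, 7 or 14 days back at the pressure of sea level, called days 22, 24, 28 and 35 here. The reference at every day was lung of time-matched control mice, and the labels name no genotype or drug. Each RNA was a pool from 5 mice, and 4 spotted 2-colour cDNA arrays set exposed lung against control lung at each of the 9 days, 36 arrays in all. Every value is a log2 ratio, so 1 unit is a doubling, and values above 0 are read as more mRNA in exposed lung. This reading is likely, not settled, since it follows from the protocol naming exposed lung and Cy5 ahead of control lung and Cy3, and no label records a dye swap. A single pool of RNA per condition and day is described. Whether the 4 arrays of 1 day hold RNA of different mice is not stated. P-values of single days, of day 22 minus day 21 and of tests among days therefore reflect array-to-array spread alone, possibly a technical one. They do not measure the spread between mice. Arrays had values at 14186 to 15042 spots. Within a day, replicate 1 resembled 2 and replicate 3 resembled 4 (median r over all features 0.69), more than arrays did across these pairs (median r 0.29), and no label calls the pairs a batch. Ratios hold no levels, so neither the tissue nor the level of any gene could be checked, and in whole lung a fall in the number of cells of a type cannot be told apart from less RNA per cell.

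As background, growth factors, stretch, calcium and stress kinases act through MAP kinases on factors already bound at these promoters, so that Fos, Jun, Egr1 and Klf4 mRNA rises and decays quickly. Fos and Jun proteins pair to form the AP-1 factor, Egr1 is a zinc finger factor studied in vascular injury, and Klf4 is a zinc finger factor of endothelium and smooth muscle. A second arm, the integrated stress response, slows translation and lets the factor ATF4 raise genes such as Atf3, itself a repressor and activator of the same DNA-binding family. Gadd45g binds the kinase MEKK4 and acts in growth arrest, Ier3 acts on survival and ERK signalling, and Rgs2 switches off signals from G protein-coupled receptors through Gq, a route by which vasoconstrictors contract smooth muscle.

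The promoters of 4 members are shown because most results turn on them: Atf3 moved in recovery, Gadd45g and Rgs2 over hypoxia, and Fos turned sign from day to day. Each run is 300 bases, 250 before to 50 after the annotated start, 5′ to 3′ on the strand of the gene, from RefSeq on GRCm38.p6. Capitals mark matches to 3 motifs searched on both strands: the ATF4 composite element TGATGNAA, the core TGACG of the cyclic AMP response element (CRE), and the TATA box TATAAA.
Atf3, chr1:191183284-191183583, - strand: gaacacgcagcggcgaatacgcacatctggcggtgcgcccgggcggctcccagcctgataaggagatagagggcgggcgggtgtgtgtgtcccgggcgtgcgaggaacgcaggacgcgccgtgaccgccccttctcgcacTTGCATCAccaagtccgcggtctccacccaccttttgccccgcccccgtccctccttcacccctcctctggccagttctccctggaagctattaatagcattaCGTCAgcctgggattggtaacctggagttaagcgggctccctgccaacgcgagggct
Gadd45g, chr13:51846425-51846724, + strand: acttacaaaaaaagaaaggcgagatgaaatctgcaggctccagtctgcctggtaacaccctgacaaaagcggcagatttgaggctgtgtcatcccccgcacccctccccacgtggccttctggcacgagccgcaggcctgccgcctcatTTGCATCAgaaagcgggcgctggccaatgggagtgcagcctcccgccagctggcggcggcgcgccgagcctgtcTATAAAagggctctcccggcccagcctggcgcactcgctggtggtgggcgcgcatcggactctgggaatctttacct
Rgs2, chr1:144004100-144004399, - strand: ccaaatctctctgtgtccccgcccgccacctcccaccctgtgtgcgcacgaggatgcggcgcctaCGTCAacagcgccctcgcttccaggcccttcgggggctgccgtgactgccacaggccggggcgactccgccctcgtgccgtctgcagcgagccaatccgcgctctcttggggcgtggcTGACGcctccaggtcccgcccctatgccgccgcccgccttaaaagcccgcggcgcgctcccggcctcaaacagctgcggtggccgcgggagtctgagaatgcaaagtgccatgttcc
Fos, chr12:85473640-85473939, + strand: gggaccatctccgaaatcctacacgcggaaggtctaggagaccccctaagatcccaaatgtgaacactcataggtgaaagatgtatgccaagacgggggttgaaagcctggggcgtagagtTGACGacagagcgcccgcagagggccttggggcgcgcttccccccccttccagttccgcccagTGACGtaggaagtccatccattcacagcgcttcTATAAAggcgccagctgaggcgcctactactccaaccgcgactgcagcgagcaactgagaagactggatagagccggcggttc
Windows were searched for 7 of the 8 members. The Egr1 promoter was not examined, so the statements below do not cover its motifs. The ATF4 composite element was found in Atf3 and Gadd45g alone among the 7, with the same letters TTGCATCA on the printed strand, at position -110 in Atf3 and -101 in Gadd45g counted from the start. It was found in 3.97% of 32841 windows of all genes. The CRE core was in Atf3, Rgs2, Fos and Klf4, against 20.8% of all windows, and lay at -129 and -66 in Fos and at -185 and -67 in Rgs2. A TATA box was in Gadd45g at -27 and Fos at -33, against 13.6% of all windows. The hypoxia response core ACGTG was in Gadd45g, Ier3 and Klf4, against 19.6%. The EGR site GCGNGGGCG was in Rgs2 and Klf4 (5.55% of all windows), a site named for NF-kappaB in Fos and Ier3 (8.46%), and a CCAAT box, CCAAT, in Atf3, Gadd45g, Ier3, Rgs2 and Jun (37.4%). The AP-1 site TGANTCA (7.81% of all windows), the full CRE TGACGTCA (1.79%) and the CArG box (1.63%) were in none of the 7. A match says only that these letters are present in this window.

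**Figure D1:**
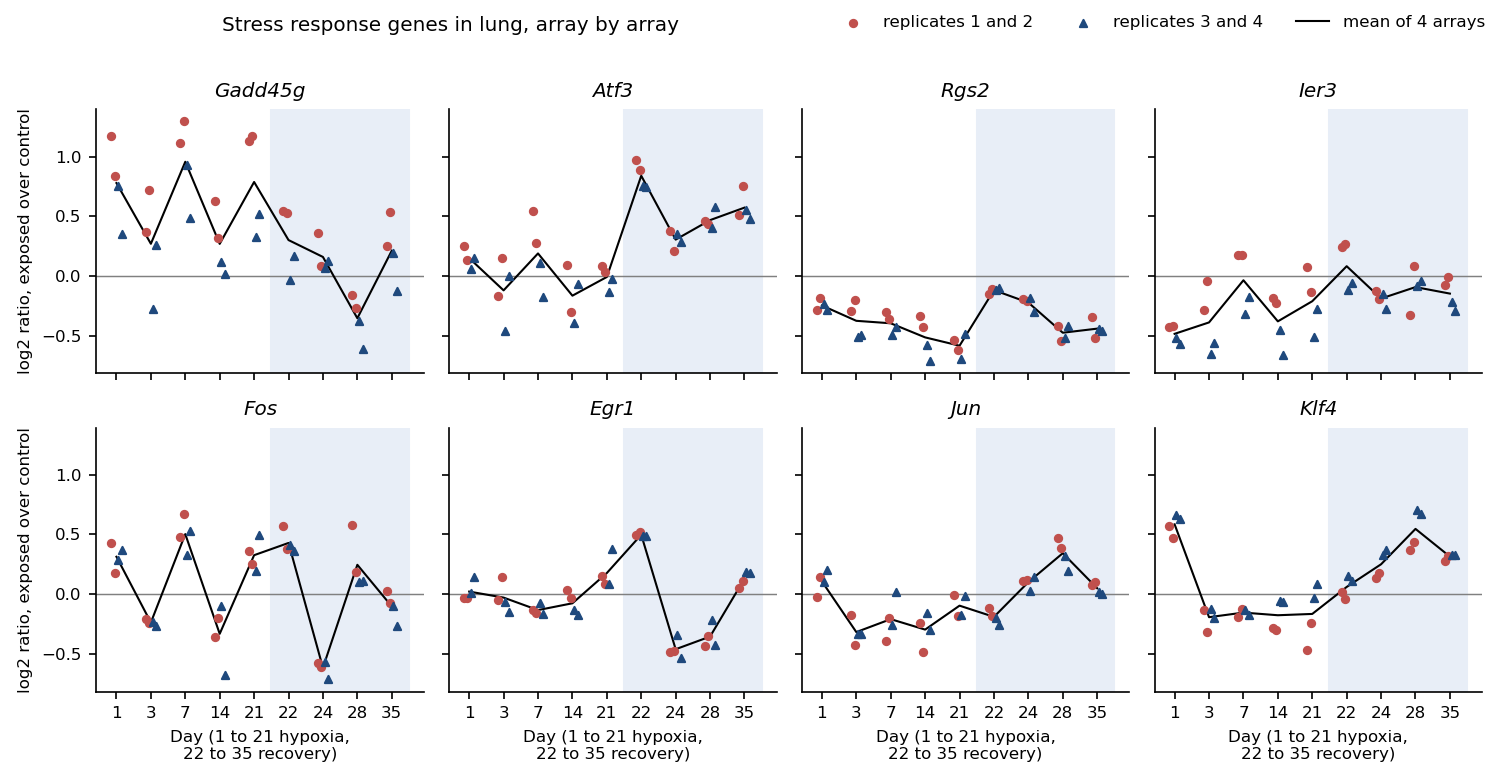
Log2 ratio of exposed over control lung on each array (points) and the mean of the 4 arrays (line) for the 8 members, against the day on the x axis; days 1 to 21 are hypoxia and days 22 to 35 recovery. Rgs2 lies below 0 on all 36 arrays, Atf3 lies above 0 on all 16 recovery arrays, and Fos turns sign several times.

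Over the hypoxia phase Gadd45g was higher than in control lung and Rgs2 and Ier3 were lower. Gadd45g averaged 0.61 ± 0.32 (SD over days, n = 5), 1.53-fold higher than control (limma adjusted p = 0.0015). Rgs2 averaged -0.42 ± 0.13, 1.34-fold lower (adjusted p = 0.00043), and Ier3 averaged -0.30 ± 0.18, 1.23-fold lower (adjusted p = 0.0028). The means of Jun (-0.16 ± 0.17), Fos (0.11 ± 0.37), Klf4 (-0.02 ± 0.34), Atf3 (0.01 ± 0.16) and Egr1 (-0.01 ± 0.12) did not pass an adjusted p of 0.05. These 3 of 8 calls stand beside 42.4% of all 12159 features tested, 24.7% higher and 17.7% lower, so the share of members called is near that of all features. The median over the 8 members was -0.01, against 0.03 over all features.

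Over the recovery phase Atf3 was higher and Rgs2 lower. Atf3 averaged 0.55 ± 0.22 (SD over days, n = 4), 1.46-fold higher (limma adjusted p = 0.026), and Rgs2 averaged -0.32 ± 0.17, 1.24-fold lower (adjusted p = 0.038). Klf4 (0.29 ± 0.20, adjusted p = 0.12), Gadd45g (0.08 ± 0.29), Ier3 (-0.09 ± 0.12), Jun (0.08 ± 0.22), Egr1 (-0.05 ± 0.45) and Fos (-0.01 ± 0.46) did not pass. Of all features 4.77% passed, 1.65% higher and 3.12% lower. Of the features called, 34.7% were higher, against 51.7% once arrays were scaled to a common spread. Both calls rest on few days. Atf3 did not pass without day 22, 24 or 28, and Rgs2 did not pass without any 1 of the 4 days, settings in which 12, 0, 2 and 592 of all features passed without days 22, 24, 28 and 35.

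The difference of the phases, hypoxia minus recovery, passed for none of the 8 members in limma, and for 0.0329% of all features. At an unadjusted p of 0.05, 15.2% of all features and 3 of 8 members passed: Atf3 (-0.54, SE 0.11, adjusted p = 0.095), Gadd45g (0.53, SE 0.17, adjusted p = 0.17) and Ier3 (-0.21, SE 0.093, adjusted p = 0.30). For Atf3 the day means ranged from -0.17 to 0.19 in hypoxia and from 0.30 to 0.84 in recovery, and these ranges did not overlap. How many of all features have ranges apart in this way was not counted, and the Atf3 difference itself did not pass. Gadd45g ranged from 0.27 to 0.96 over the hypoxia days and from -0.35 to 0.30 over the recovery days, which overlap.

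**Figure D2:**
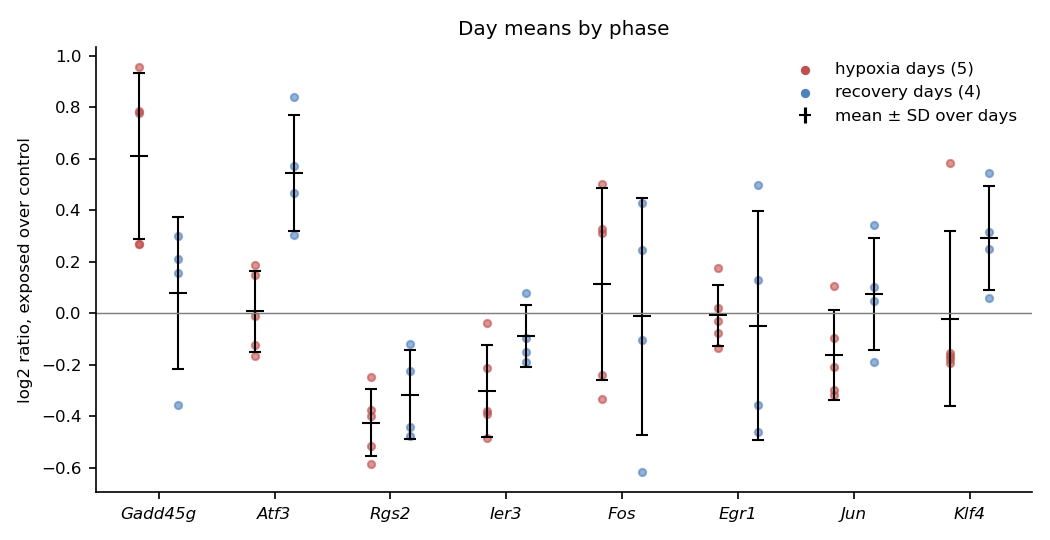
Mean log2 ratio (y axis) over the 5 hypoxia days (left of each pair) and the 4 recovery days (right) for each member; horizontal ticks are means, bars the SD over days and points the day means. Gadd45g stands at 0.61 in hypoxia and 0.08 in recovery, Atf3 at 0.01 and 0.55, and Rgs2 at -0.42 and -0.32.

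Atf3, the stress-induced factor on chromosome 1 (191170296 to 191183333, GRCm38.p6, as for every position here), stood near 0 through hypoxia and above control throughout recovery. Its arrays read 0.08, 0.04, -0.13 and -0.03 at day 21, the last hypoxia day. At day 22, after 1 day at sea level pressure, they read 0.97, 0.88, 0.75 and 0.74. They read 0.37, 0.21, 0.35 and 0.28 at day 24, 0.46, 0.43, 0.40 and 0.57 at day 28, and 0.51, 0.75, 0.55 and 0.48 at day 35. All 16 recovery arrays were above 0, as they were for 0.906% of 10370 features with values on all 16. The day means passed at day 22 (0.84, 1.79-fold, adjusted p = 3.7e-08), day 24 (0.30, adjusted p = 0.048), day 28 (0.47, adjusted p = 9.3e-05) and day 35 (0.57, adjusted p = 2.9e-05). On the hypoxia arrays Atf3 lay between -0.47 and 0.55, with 11 above 0, 8 below and 1 listed at 0, and no hypoxia day passed. At days 3 and 7 its arrays spread on both sides of 0.

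Gadd45g, the growth arrest gene on chromosome 13 (51846675 to 51848475), was above 0 on 19 of 20 hypoxia arrays. Its arrays read 1.17, 0.84, 0.75 and 0.35 at day 1, 1.12, 1.29, 0.93 and 0.48 at day 7, and 1.13, 1.17, 0.32 and 0.52 at day 21. These were its 3 days that passed: day 1 at 0.78 (1.71-fold, adjusted p = 0.00034), day 7 at 0.96 (1.94-fold, adjusted p = 7.2e-06) and day 21 at 0.79 (1.73-fold, adjusted p = 0.0010). At day 3 it read 0.37, 0.72, -0.28 and 0.26, and at day 14 0.62, 0.32, 0.11 and 0.02, with means of 0.27 at both days that did not pass. At day 28 all 4 arrays were below 0, from -0.61 to -0.16, and that day did not pass. Gadd45g was higher in replicates 1 and 2 than in 3 and 4 at 9 of 9 days, by 0.43 on average. Its hypoxia mean was 0.88 in replicates 1 and 2 and 0.35 in replicates 3 and 4, and it passed in each pair alone.

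Rgs2, the brake on Gq signalling on chromosome 1 (143999338 to 144004149), was below 0 on all 36 arrays, as were 1.15% of 7556 features with values on every array. The mean of its 2 spots read -0.33, -0.43, -0.58 and -0.72 at day 14, and -0.54, -0.62, -0.70 and -0.48 at day 21. At day 22 the arrays read -0.15, -0.11, -0.12 and -0.10, all nearer to 0 than any array of days 14 and 21. At day 28 they read -0.42, -0.54, -0.52 and -0.42, and at day 35 -0.34, -0.52, -0.44 and -0.46. Rgs2 passed at 8 of the 9 days, all but day 22, from -0.22 at day 24 (adjusted p = 0.022) to -0.59 at day 21 (adjusted p = 1.5e-08). Its day means at days 1, 3 and 7 were -0.25, -0.38 and -0.40. The 2 spots had day means that correlated at r = 0.90 over 9 days, with their largest gap, 0.20, at day 28.

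Ier3, the survival gene on chromosome 17 (35821713 to 35822911), was below 0 on 17 of 20 hypoxia arrays. It read -0.43, -0.42, -0.52 and -0.57 at day 1, -0.29, -0.05, -0.66 and -0.57 at day 3, and -0.18, -0.23, -0.45 and -0.66 at day 14. Those days passed, at -0.49 (adjusted p = 0.00058), -0.39 (adjusted p = 0.0033) and -0.38 (adjusted p = 0.0037). At day 7 replicates 1 and 2 read 0.18 and 0.17 while replicates 3 and 4 read -0.32 and -0.18. Ier3 was lower in replicates 3 and 4 at 8 of 9 days, by 0.25 on average, and its hypoxia mean of -0.13 in replicates 1 and 2 alone did not pass (adjusted p = 0.23). No recovery day of Ier3 passed.

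Fos, a partner in AP-1, on chromosome 12 (85473890 to 85477274), was high on some days and low on others. It read 0.48, 0.68, 0.33 and 0.53 at day 7 and -0.36, -0.20, -0.10 and -0.68 at day 14. In recovery it read 0.57, 0.37, 0.41 and 0.36 at day 22 and -0.58, -0.61, -0.57 and -0.71 at day 24. The arrays of each day lay on 1 side of 0 at every day but day 35. Fos was higher at days 1 (0.31), 7 (0.50, adjusted p = 4.7e-06), 21 (0.33), 22 (0.43) and 28 (0.25), and lower at days 3 (-0.24), 14 (-0.33) and 24 (-0.62, 1.53-fold lower, adjusted p = 7.1e-06). The largest of its 8 calls, at days 7 and 24, passed in every replicate alternative, and those of days 1, 3, 21, 22 and 28 did not pass with the replicate pair as a random block. Its day means from replicates 1 and 2 correlated at r = 0.97 with those from replicates 3 and 4. Each day had its own control pool, and the part of the control lungs in these turns was not tested.

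Jun, the other partner in AP-1, on chromosome 4 (95049036 to 95052222), did not follow Fos. Jun read -0.18, -0.42, -0.33 and -0.34 at day 3, -0.24, -0.48, -0.16 and -0.30 at day 14, and 0.47, 0.39, 0.32 and 0.20 at day 28. It was lower at day 3 (-0.32, adjusted p = 0.00017), day 7 (-0.21, adjusted p = 0.0056) and day 14 (-0.30, adjusted p = 0.00030), and higher at day 28 (0.34, adjusted p = 4.2e-05). At day 24, where Fos was at its lowest, Jun read 0.11, 0.12, 0.03 and 0.15 and did not pass.

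Egr1, on chromosome 18 (34861207 to 34864956), stayed between -0.17 and 0.38 on the hypoxia arrays, and no hypoxia day passed. At day 22 its arrays read 0.50, 0.52, 0.49 and 0.49. At day 24 they read -0.49, -0.48, -0.34 and -0.54, and at day 28 -0.43, -0.35, -0.22 and -0.42. Egr1 was thus higher at day 22 (0.50, 1.41-fold, adjusted p = 8.2e-08) and lower at day 24 (-0.46, 1.38-fold lower, adjusted p = 3.2e-06) and day 28 (-0.36, adjusted p = 8.7e-06). At day 35 it stood at 0.13 ± 0.06 (SD, 4 arrays) and did not pass.

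Klf4, on chromosome 4 (55527137 to 55532475), was high at the first hypoxia day and late in recovery. The mean of its 2 spots read 0.57, 0.47, 0.67 and 0.63 at day 1, 0.37, 0.44, 0.71 and 0.67 at day 28, and 0.28, 0.32, 0.33 and 0.33 at day 35. It was higher at day 1 (0.58, adjusted p = 1.4e-07), day 24 (0.25), day 28 (0.55, 1.46-fold, adjusted p = 4.3e-07) and day 35 (0.31, adjusted p = 0.0035). It was lower at day 3 (-0.19, adjusted p = 0.035) and day 14 (-0.18, adjusted p = 0.048). The calls at days 3, 14 and 24 did not pass with the replicate pair as a random block, nor on either spot alone. The spots of Klf4 correlated at r = 0.93 over the 9 day means. Their largest gap, 0.29, was at day 7, where they stood at -0.30 and -0.01. On that day 1 spot averaged -0.49 in replicates 1 and 2 and -0.11 in replicates 3 and 4, and the other 0.17 and -0.19. The mean of the spots was lower in replicates 1 and 2 at 9 of 9 days (mean difference -0.16), but the spots differed. At day 1, 1 spot averaged 0.31 in replicates 1 and 2 and 0.79 in replicates 3 and 4, and the other 0.73 and 0.51. At day 35 they stood at 0.17 and 0.51, and at 0.43 and 0.15. At days 24 and 28 both spots were lower in replicates 1 and 2. The Klf4 p-values use the mean of the spots, which at day 35 varied less between arrays than either spot (SD 0.20 and 0.16). The day 35 call did not pass on 1 of the spots, without replicate 3 or in replicates 1 and 2 alone.

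Counted by day, 5 members passed at day 1, beside 19.6% of all features, and 5 at day 3, beside 23.3%. At day 7, 4 members passed (35.8% of all features), at day 14, 5 (27.7%), and at day 21, 3 (4.52%). In recovery 3 members passed at day 22, all higher, where 1.56% of all features did, and 5 at day 24, where 2.87% did. At day 28, 6 members passed, beside 32.1% of all features, and at day 35, 3, beside 3.16%. At day 3 and day 14 the same 5 members passed, all lower: Fos, Ier3, Jun, Klf4 and Rgs2. Of these 39 calls, 28 passed with the replicate pair as a random block, 24 in both pairs alone, and 22 in every alternative that changed the replicates. Atf3, Klf4 and Rgs2 at day 24, Jun at day 7, Klf4 at days 3 and 14 and Fos at days 1, 3, 21, 22 and 28 did not pass with the random block. The 22 were Rgs2 at days 3, 7, 14, 21, 28 and 35, Atf3 at 22, 28 and 35, Egr1 at 22, 24 and 28, Jun at 3, 14 and 28, Gadd45g at 1 and 7, Klf4 at 1 and 28, Fos at 7 and 24, and Ier3 at 1.

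**Figure D3:**
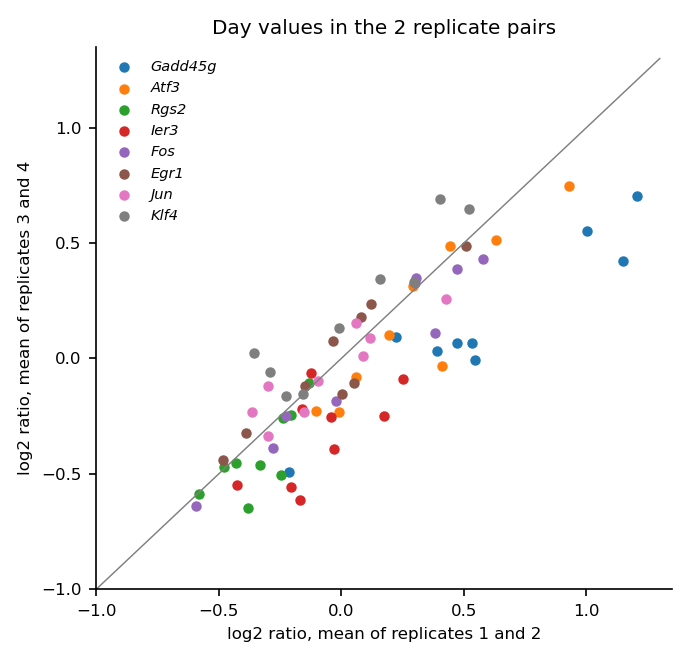
Day means of each member from replicates 1 and 2 against those from replicates 3 and 4 (log2 ratio on both axes, 1 point per day, with the line of equal values). Pearson r over the 9 days runs from 0.62 for Ier3 to 0.97 for Fos, and the Gadd45g points lie below the line, since replicates 1 and 2 are higher by 0.43 on average.

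The step off hypoxia was measured as day 22 minus day 21. It was a difference of 2 ratios, each against its own control. Atf3 was higher at day 22, with 0.74 to 0.97 on its arrays, than at day 21, with -0.13 to 0.08 (difference 0.85, SE 0.12, limma adjusted p = 8.7e-05), and ranked 11 from the highest of 12149 features. Rgs2 was higher, that is nearer to control, at day 22 (-0.15 to -0.10) than at day 21 (-0.70 to -0.48), by 0.47 (SE 0.079, adjusted p = 0.00078). Egr1 read 0.49 to 0.52 at day 22 and 0.08 to 0.38 at day 21, a difference of 0.32 (SE 0.076, adjusted p = 0.036). The arrays of the 2 days did not overlap for these 3 genes, nor for 1 of the 2 spots of Klf4, which did not pass. This describes the arrays that the test used and is no separate support. How many of all features have arrays apart in this way was not counted. Gadd45g (-0.49, adjusted p = 0.78), Ier3 (0.29), Klf4 (0.23), Fos (0.10) and Jun (-0.09) did not pass. Of all features 0.609% passed, and 0.37% were higher at day 22. Rgs2 did not pass without replicate 3 or in replicates 1 and 2 alone. Egr1 did not pass in either pair alone, with the random block, or without replicate 1, 2 or 3.

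**Figure D4:**
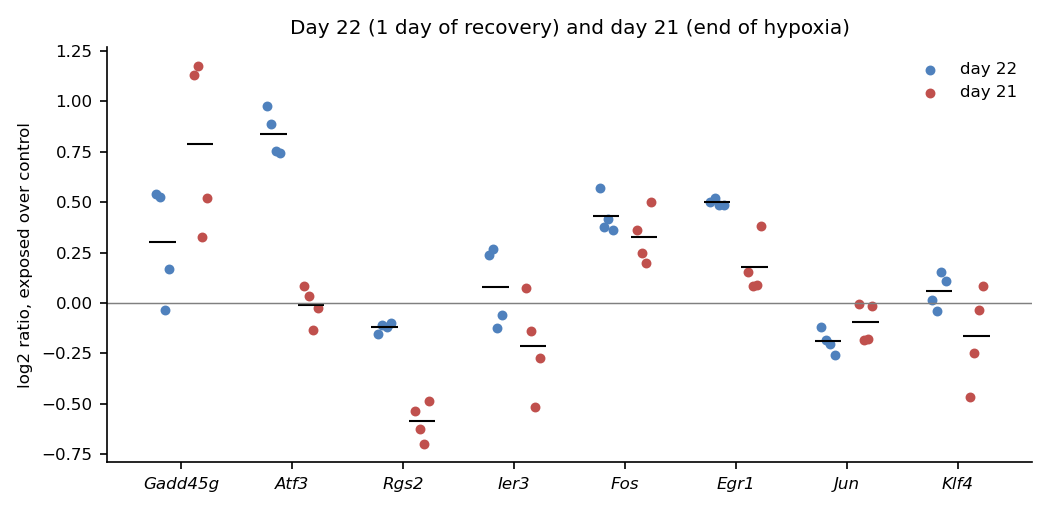
Log2 ratio (y axis) on each of the 4 arrays at day 22 (left of each pair) and day 21 (right) for the 8 members, with a line at each mean. Atf3 reads 0.74 to 0.97 at day 22 and -0.13 to 0.08 at day 21, and Rgs2 and Egr1 also have separate arrays.

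The members also differed among days within a phase. A test of any difference among the hypoxia days passed for 5 of 8 members, beside 7.93% of all features: Klf4 (adjusted p = 5.2e-07), Fos (8.1e-07), Jun (0.0028), Rgs2 (0.028) and Egr1 (0.047). Klf4 ranked 44 and Fos 50 by p among 11666 features. Among the recovery days 6 of 8 passed, beside 9.83% of all features: Egr1 (adjusted p = 4.2e-11), Fos (5.5e-08), Jun (0.00047), Rgs2 (0.0043), Klf4 (0.0058) and Atf3 (0.018). Egr1 ranked 21 and Fos 52 of 12073. With the replicate pair as a random block, 2 members passed among hypoxia days, beside 1.91% of all features, and 3 among recovery days, beside 1.74%.

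Across the 9 day means the members did not move as 1 group. As a description, and with controls and arrays shared between the genes of a day, the closest pair was Jun and Klf4 (Pearson r = 0.90, Spearman rho = 0.92), followed by Atf3 and Ier3 (r = 0.76). Fos and Egr1 had r = 0.49, and the lowest was Gadd45g and Jun (r = -0.45). Among 6486 genes, those most like each member in both replicate pairs were, by the lower of the 2 Pearson r over 9 days, Ylpm1 (0.94) and Zzz3 (0.87) for Klf4, Arfgap3 (0.89) and Lmna (0.88) for Gadd45g, and Cdk13 (0.88) and Pon3 (0.80) for Atf3. For Jun they were Sirt1 and Myzap (both 0.86), for Ier3 Usp34 (0.82) and Mdh1 (0.75), for Rgs2 Cd55 (0.75) and Trmt6 (0.74), and for Egr1 Srpr (0.75) and Cish (0.74). Fos had the least similar companions, Fkbp5 and Ceacam20 (both 0.65). Fkbp5, a glucocorticoid target, was below 0 at the same days as Fos in hypoxia, days 3 (-0.60) and 14 (-1.60), and at day 24 (-0.44), but opposite in sign to Fos at day 28 (-0.14) and day 35 (0.28).

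Relatives of the members in 6 lists of 186 genes gave a wider view. Of 82 genes with values for the phases, 15 were higher and 19 lower over hypoxia (41.5%, against 42.4% of all features). Over recovery 2 were higher and 1 lower (3.66%, against 4.77%). In the list of other immediate early and related transcription factors, 2 of 11 were higher and 3 lower over hypoxia. Of those with a single sign at all 5 days, Klf9, a glucocorticoid-responsive factor, stood at -0.60 ± 0.27 (SD over 5 days). Elk4, a partner of serum response factor, stood at -0.16 ± 0.07. The 2 higher genes did not keep a single sign. Ier5 and Csrnp1 were mostly above 0, with hypoxia day means from -0.03 to 0.51 and from -0.18 to 0.66. Of 17 secreted and effector genes 4 were higher and 3 lower: the protease Adamts1 (0.47), the kinase Sgk1 (0.39) and Odc1 of polyamine synthesis (0.30) rose, and the survival gene Mcl1 (-0.33) and the mRNA decay factor Zfp36l2 (-0.25) fell. Of 17 genes of the MAP kinase route and its feedback 3 were higher and 4 lower, with the ERK kinase gene Map2k2 at 0.33, the p38 gene Mapk14 at 0.22, the feedback inhibitor Spred1 at -0.30 and the JNK gene Mapk8 at -0.22. Mapk14 did not pass in replicates 3 and 4 alone (0.08, adjusted p = 0.30).

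**Figure D5:**
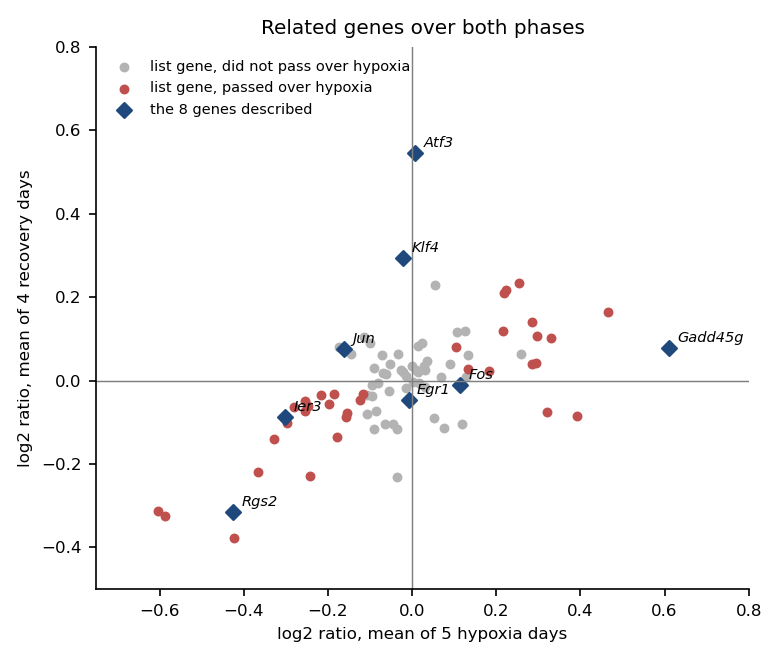
Mean log2 ratio over the hypoxia phase (x axis) and the recovery phase (y axis) for list genes (small points) and the members (labelled), with list genes that passed over hypoxia in red. Gadd45g lies far along the hypoxia axis at 0.61, Atf3 far along the recovery axis at 0.55, and Rgs2 below 0 on both.

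In the integrated stress response list, to which Atf3 belongs by function, 4 of 14 genes were higher over hypoxia and 1 lower. Psat1 of serine synthesis (0.32), the pseudokinase gene Trib3 (0.29) and Nupr1, a stress-induced nuclear protein gene (0.28), rose, and Cth, an enzyme that makes cysteine, was lower (-0.25). Trib3 did not pass in replicates 1 and 2 alone, nor Cth on 1 of its spots, nor Nupr1 in replicates 3 and 4 alone or without day 7 or 21. Over recovery, where Atf3 was higher, 1 gene of this list passed, the phosphatase subunit gene Ppp1r15a at 0.21 (adjusted p = 0.049). In the other lists the small GTPase gene Rhob, a secreted and effector list gene, passed at 0.22 (adjusted p = 0.045). Rrm2b, of the p53 response list, was lower (-0.22). None of these 3 passed without any 1 of the recovery days. In the list of Gadd45 relatives and p53 response genes, no Gadd45 relative had a value, so its counts cover p53 response genes alone. Of 10 such genes 1 was higher over hypoxia, the nuclease gene Aen (0.13), and 5 were lower. Among the lower were the death receptor gene Fas (-0.59), Rrm2b (-0.37), a ribonucleotide reductase subunit, and Ccng1 (-0.28), a cyclin G gene. Aen did not pass on 1 of its spots (0.06), in replicates 3 and 4 alone (0.03), or without replicate 1 or 2 or day 1 or 7. The 2 spots of Ccng1 differed in sign, 1 of them at 0.19 (adjusted p = 0.030). Of 13 genes of the RGS family and the Gq route 1 was higher and 3 lower, with Rgs12 at -0.42 and Rgs3 at -0.18 lower like Rgs2, and the Gq effector gene Plcb3 at 0.18. Rgs11, not among the genes that passed, went the other way, with hypoxia day means from 0.15 to 0.56. In replicates 1 and 2 alone Rgs12 and Plcb3 did not pass and Rgs3 stood at 0.090, and Rgs3 did not pass without replicate 3 or 4.

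Some cell type markers passed over a phase, and their part in the members' values was not tested. Of all features 42.4% passed over hypoxia, 24.7% higher and 17.7% lower, and 4.77% over recovery. Counts on so few markers per cell type therefore say little about that cell type. Of the macrophage and monocyte markers 4 of 10 had a value, and 3 were lower over hypoxia (Cybb -0.62, Fcgr3 -0.33, Fcgr1 -0.27), with a median of -0.30. Smooth muscle markers were measured for 3 of 9 genes, and 2 were higher over hypoxia (median 0.23). Over recovery 1 of 3 smooth muscle markers (Cnn1, -0.32), 1 of 4 of macrophages (Cybb, -0.33) and 1 of 2 of mast cells and platelets (Kit, -0.31) were lower. The others of these lists did not pass over recovery. Smtn of smooth muscle (0.14) and the macrophage markers Fcgr1 (0.03) and Lyz2 (0.07) stood above 0. Myl9 (-0.12), Fcgr3 (-0.19) and Ppbp (-0.24) stood below it. Both endothelial markers measured were higher over hypoxia, Cdh5 at 0.27 and Emcn at 0.66. Over recovery Emcn was also higher (0.55), and Cdh5 stood at -0.07 and did not pass. Of 3 erythroid markers 2 were higher over hypoxia, with Hbb-b1 at 0.99, and of 3 neutrophil markers Ltf was higher (0.68) and S100a9 lower (-1.51). Among 5 fibroblast and mesothelial markers 1 was higher and 2 lower over hypoxia, among 2 of epithelium 1 was higher, among 2 of mast cells and platelets 1 was lower, and the single lymphocyte marker did not pass. The marker medians can be set beside the step at day 22, where Atf3 and Rgs2 were higher than at day 21. The endothelial median was -0.02 at day 22 and 0.62 at day 21, the erythroid 0.65 and 0.20, and the macrophage 0.03 and -0.36 on those days. For mast cells and platelets it was -0.10 at day 22 and -0.47 at day 21, for smooth muscle -0.17 and 0.12, for neutrophils 0.19 and -0.08, for epithelium 0.02 and 0.25, for fibroblasts and mesothelium -0.09 and 0.12, and for the lymphocyte marker -0.34 and -0.36. These differences of medians were not tested.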

How the data were processed

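Per the labels' protocols, the authors took log2 ratios of median spot intensities from GenePix scans after background correction, left out flagged spots and applied lowess; a genome build plays no part in them. These deposited log2 ratios were not changed before the fits, and missing values stayed missing; 2701 of 528392 values equal 0, among them Atf3 on replicate 4 of day 3. Gene names came from the platform annotation (9598 of 15388 with a single symbol, 514 with several, 5276 with none), of which 9510 matched the RefSeq table of GRCm38.p6 used for positions. Where a gene had several spots their mean on an array was used; at day 21, replicate 1 of Klf4 rests on 1 of its spots. Depth of signal over background was not used here, and the number of arrays limits precision.

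Fits used limma 3.58.1 (lmFit, eBayes) in R 4.3.3 on all features, 2-sided, and p-values were adjusted by Benjamini and Hochberg across the features tested (threshold 0.05). For the phases the day was the unit: arrays of a day were averaged and 9 day means fitted, for features with at least 2 arrays at each day. Single days, day 22 minus day 21 and F tests among days used the 36 arrays with a mean per day, for features with at least 3 of 4 arrays. The members and lists were chosen with earlier results of these data known, and no list was tested as a set. Named genes are all members with a spot, from each list up to 3 higher and 3 lower over hypoxia and 2 and 2 over recovery among those past the threshold with a single sign at every day (largest first; the text gives a part of these), and the 2 genes most like each member; cell markers were named after their values were seen. On simulated data for 4705 genes, changes of 0.5 were recovered for 91 percent of changed genes at day 22, 71 percent for day 22 minus day 21, 99 percent over hypoxia and 96 percent between phases. The simulated arrays were independent, without replicate pairs, and for the phases the true values were the same at every day of a phase. Real arrays and days vary more than this, so these shares are likely too high for them. Alternatives were median centring, scaling, other limits on missing values, each spot alone, leaving out replicates or days, each replicate pair alone, a replicate block, the replicate pair of a day as a random block, and arrays as the unit.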

Additional observations from a re-analysis of the deposited data

Results flagged for a closer look

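The 4 arrays of Fos at day 28 read 0.58, 0.19, 0.11 and 0.11, and replicate 1, at 0.58, stood apart from the other three by Dixon's test at the 95 percent level. It was the only such array among 72 groups of 4 arrays checked, where chance alone marks about 1 in 20 groups. The day 28 call of Fos did not pass in every setting that changed the replicates.

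The ratio at day 22 differed from that at day 21, by the test of the difference itself (limma), for Atf3 by 0.85 (0.84 against -0.01, adjusted p = 8.7e-05), for Rgs2 by 0.47 (-0.12 against -0.59, adjusted p = 0.00078) and for Egr1 by 0.32 (0.50 against 0.18, adjusted p = 0.036). All 4 arrays of day 22 were above all 4 of day 21 for these 3 genes, which describes the tested arrays and is no separate support. The 2 days were set against different control pools, and the part of those pools was not tested.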

How the results depend on the processing

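Of 1936 recomputed values of single genes, 1740 kept their direction and side of the threshold, 144 no longer passed, 49 newly passed and 3 turned sign: Ccng1 over hypoxia on 1 of its spots (0.19), Map2k1 in replicates 3 and 4 alone (-0.00064, adjusted p = 0.99) and Rgs3 in replicates 1 and 2 alone (0.090, adjusted p = 0.28). A turn was counted only where either value passed. The 3 members called over hypoxia became 5 with arrays as the unit, with the replicate block (56.8% of all features passed) or without it (51.3%). The 2 called over recovery became 0 without day 22, 24 or 28, 1 without day 35, 5 with arrays as the unit and the replicate block (42.2% of all features), and 4 without the block (33.5%). Between the phases 6 members passed with arrays as the unit in either form, against 0, where 24.1% of all features passed with the block and 16.8% without. The 3 members called for day 22 minus day 21 became 1 to 3 when a replicate was left out (1 without replicate 3) and 1 in replicates 1 and 2 alone. Of the members that differed among hypoxia days (5), 2 to 3 passed without a replicate, 3 in replicates 1 and 2, 2 in replicates 3 and 4 and 2 with the random block. Among recovery days (6), the range without a replicate was 3 to 5, with 3 without replicate 2 or 3, then 2 in replicates 1 and 2, 3 in replicates 3 and 4 and 3 with the random block. List genes over hypoxia (34) became 54 with arrays and the block. List genes over recovery (3) became 14 after scaling, 1 with at least 1 array a day, 6 with each spot alone, 1 to 4 without a replicate, 5 in replicates 1 and 2, 7 in replicates 3 and 4, 0 without day 22, 24 or 28, 33 with arrays and the block, and 22 with arrays alone.

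Over all features the recovery count was 580, against 3199 after scaling to a common spread (51.7% of them higher, against 34.7%) and 0 to 592 without 1 recovery day. Day 22 minus day 21 gave 74 features, against 25 with the random block and 139 with the replicate block. Differences among hypoxia days gave 925, against 334 scaled, 1707 with the replicate block and 223 with the random block, and among recovery days 1187, against 1902 and 210. Replicate numbers were not taken as pairs: deviations of same-numbered arrays of different days correlated over 0.1 in 127 of 144 cases (median 0.38), much as arrays of the same replicate pair with another number did (126 of 144, median 0.39). The 39 day calls of members became 47 with the replicate block: none was lost, and Gadd45g at days 3, 14 and 28, Atf3 at day 7, and Egr1 and Klf4 at days 7 and 21 newly passed. No array intensity was used, so dim spots could not be set apart.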
